A study of Mus musculus with 15 samples.

Results

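Mural cells wrap the endothelial tube of blood vessels. Of 5581 cells in the deposited table of mouse striatum, 204 were mural cells, and 49 of these were smooth muscle cells and 155 were pericytes. They were chosen by their own gene counts among the 549 cells that the authors' annotation places in the class "other". A cell was taken as mural when its summed unique molecular identifiers (UMIs, each marking 1 captured mRNA) of Acta2, Tagln, Myh11, Kcnj8, Vtn and Higd1b came to 3 or more and exceeded both its endothelial sum (Cldn5, Flt1, Pecam1, Ly6c1, Itm2a) and its fibroblast sum (Dcn, Col1a1, Col1a2, Lum). A mural cell counted as smooth muscle when Acta2, Tagln and Myh11 together exceeded Kcnj8, Vtn and Higd1b together, and as a pericyte otherwise. The same sums marked 310 endothelial cells and 33 fibroblasts for comparison. Levels of all these genes, and of every other gene compared between these kinds of cell, describe the choice and carry no test.

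The animals were male C57BL/6J mice, bought at 8 weeks of age and habituated for about 1 week. They received haloperidol from implanted pellets (5 mice), olanzapine mixed into their food (5 mice) or placebo (5 mice) for 28 to 29 days. Haloperidol and olanzapine mice therefore differed in route as well as in compound, and the labels do not give the route of the placebo. Each mouse gave 1 droplet library of dissociated striatum (10x Genomics 3′ chemistry), and mice are the replicates throughout.

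Smooth muscle cells ring arteries and arterioles and narrow them by the actin and myosin machinery. Pericytes lie along capillaries inside the basement membrane, are recruited by platelet-derived growth factor, and carry an ATP-sensitive potassium channel. In the brain both help to set local blood flow and to maintain the blood-brain barrier. Haloperidol blocks dopamine D2 receptors, and olanzapine blocks a wider set of dopamine, serotonin, histamine, adrenergic and muscarinic receptors.

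The mural cells held 633071 UMIs, with a median of 4604 UMIs in a smooth muscle cell and 2128 UMIs in a pericyte. Their smallest mural sum was 7 UMIs, although the rule asked for 3. Just inside the rule lay a pericyte with 17 mural and 16 fibroblast UMIs and another with 33 mural and 31 endothelial UMIs. Just outside lay a cell with 94 mural and 95 endothelial UMIs and one with 15 mural and 16 fibroblast UMIs. Of the pericytes, 130 had no UMI of Acta2, Tagln or Myh11, whereas 43 of the 49 smooth muscle cells held 3 or more UMIs of Kcnj8, Vtn and Higd1b. Scrublet, a doublet caller, marked 10 of the 204 cells, and none had over 20% mitochondrial UMIs.

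The library of placebo mouse 5 shared cell barcodes with other libraries. Of its 514 cell barcodes, 211 (41.1%) also occurred in placebo mouse 2 or placebo mouse 3, while all other pairs of mice shared 18 barcodes in total. In all 211 pairs the cell of placebo mouse 5 had fewer UMIs, with a median ratio of 0.318. Within such pairs the expression profiles correlated with a median of 0.66, against 0.36 with other cells of the same class, which describes these libraries only. The sharing touched 6 of the 22 mural cells of placebo mouse 5, namely 5 pericytes and 1 smooth muscle cell. It also touched 18 of its 36 endothelial cells. Whether these are the same cells was not tested, and if they are, placebo mouse 5 is not independent of placebo mice 2 and 3 in the fits below. Leaving the shared cells out of placebo mouse 5 kept the count of called genes at 0 in mural cells and in pericytes.

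The label was checked on genes the rule did not use. Of the 155 cells called pericytes, 30 (19.4%) held more UMIs of 9 further fibroblast genes (among them Apod, Slc6a13, Igf2 and Mgp) than of 8 further pericyte genes (Abcc9, Pdgfrb, Rgs5, Cspg4, Notch3, Anpep, Cd248, Atp13a5). Their median was 38.5 fibroblast and 1 pericyte UMI, and in 25 of the 30 the fibroblast UMIs exceeded 2 times the pericyte UMIs. Those with the smallest excess held 5 fibroblast and 4 pericyte UMIs. As a group the 30 go against the pericyte label. The other 125 pericytes had medians of 3 fibroblast and 16 pericyte UMIs. The cells rich in fibroblast RNA made up 9 of 44 pericytes in haloperidol mice, 11 of 67 in olanzapine mice and 10 of 44 in placebo mice. Of 49 smooth muscle cells, 3 had such an excess. The other 46 smooth muscle cells had medians of 2 fibroblast and 17 pericyte UMIs, much as the 125 pericytes did. The check thus sets mural cells apart from fibroblasts and cannot tell pericytes from smooth muscle cells. The mural sum was not over 2 times the endothelial sum in a further check for 17 pericytes and 5 smooth muscle cells, so that 46 pericytes and 7 smooth muscle cells stood out on either count.

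**Figure D1:**
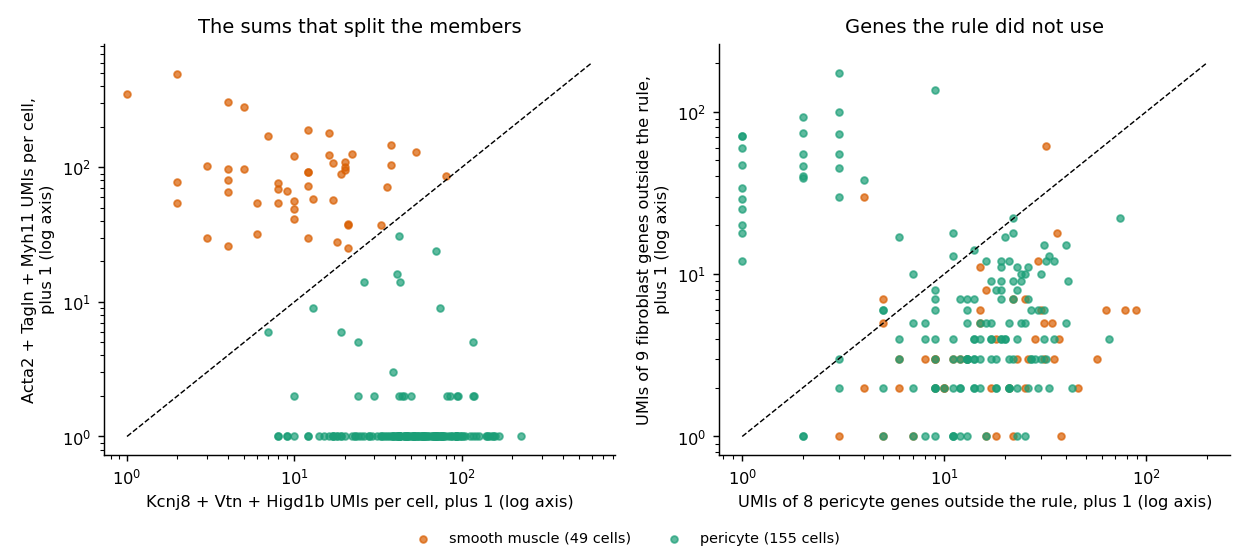
UMIs per cell for the 49 smooth muscle cells (orange) and the 155 pericytes (green), plus 1, on log axes with a dashed line of equality. Left, the 2 sums that split the members. Right, genes outside the rule, where 30 pericytes lie above the line with more fibroblast than pericyte UMIs.

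Smooth muscle cells carried the contractile genes. Levels are UMIs per 1000000 UMIs of all genes (CPM), summed over all mice within 1 kind of cell, and are compared only for the same gene. Acta2, smooth muscle actin, stood at 13174 CPM in smooth muscle cells, against 230 CPM in pericytes, 188 CPM in endothelial cells and 10.4 CPM in fibroblasts. Tagln, the actin-binding protein transgelin, stood at 5718 CPM in smooth muscle cells and 101 CPM in pericytes. Myh11, the smooth muscle myosin heavy chain, stood at 1580 CPM in smooth muscle cells and 38.8 CPM in pericytes. These were the genes of the rule, which the annotation of GRCm38 places on chromosome 19 at 34241090 to 34255590 (Acta2, minus strand), chromosome 9 at 45929619 to 45936058 (Tagln, minus strand) and chromosome 16 at 14194535 to 14291372 (Myh11, minus strand). In astrocytes of the same table Acta2 was at 12.4 CPM, below its level in pericytes.

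The contractile programme extended beyond the genes of the rule. Without Acta2, Tagln and Myh11, 28 of 29 contractile genes in the table were higher in smooth muscle cells than in pericytes, and 26 were higher in mural than in endothelial cells, as a description of cells that the rule chose. Myl9, the regulatory myosin light chain, was at 7968 CPM in smooth muscle cells and still at 2955 CPM in pericytes, against 518 CPM in endothelial cells. Mylk, the kinase that phosphorylates that light chain, was at 1852 CPM in smooth muscle cells and 243 CPM in pericytes. Tpm2, a tropomyosin, was at 3277 CPM in smooth muscle cells and 186 CPM in pericytes. Cald1, caldesmon, was about even, with 2327 CPM in smooth muscle cells and 2223 CPM in pericytes. Myl9 and Cald1 thus marked both kinds of mural cell, and Acta2 and Myh11 one of them.

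Several genes had only a few UMIs in pericytes. Pln, phospholamban, which restrains the calcium pump of the sarcoplasmic reticulum, had 202 UMIs in smooth muscle cells and 1 UMI in pericytes. That is a ratio of levels of 317, with an exact 95% counting interval of 56.3 to 12594. Pdlim3, an actinin-binding protein, had a ratio of 116 (20.2 to 4653), and Cnn1, calponin, had a ratio of 69.1 (11.8 to 2791). Palld, the actin scaffold palladin, had a ratio of 57.1 (19.0 to 281). Fbxl22 had no UMI in pericytes and was at least 40.3-fold higher in smooth muscle cells, taking 3 UMIs over all pericytes as the limit. These intervals and limits cover counting error only.

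The smooth muscle levels varied between mice. Only 3 mice held 5 or more smooth muscle cells. Acta2 was at 7208 CPM in the smooth muscle cells of haloperidol mouse 3, 23091 CPM in those of olanzapine mouse 3 and 8350 CPM in those of olanzapine mouse 5. Pln was at 350, 919 and 721 CPM, and Cnn1 at 80.7, 491 and 46.5 CPM, in the same order of mice. With no placebo mouse among them, no drug comparison was made in smooth muscle cells alone.

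Serum response factor acts on contractile genes through a short sequence, the CArG box, and the promoters of genes named here were searched for it on both strands. Only its strict form was counted, with no letter off the consensus. The boxes known from experiments on Acta2 depart from that form and are therefore not counted. The window was the 250 bases before each RefSeq start site in the mouse build GRCm38.p6. A CArG box lay in 5 of 30 contractile genes with a promoter in the table (16.7%: Filip1l, Ldb3, Myl6, Myl9 and Vcl), in 0 of 19 pericyte genes (0%), and in 439 of all 27025 genes with a promoter there (1.62%). The 3 promoters below with a box belong to contractile genes of these cells, and those of Acta2 and Kcnj8 are shown as leading genes without a strict match in this window. Each is written 5′ to 3′ on the strand of the gene, in lower case, with the CArG box in capitals.
Myl9, chr2:156775214-156775463, plus strand: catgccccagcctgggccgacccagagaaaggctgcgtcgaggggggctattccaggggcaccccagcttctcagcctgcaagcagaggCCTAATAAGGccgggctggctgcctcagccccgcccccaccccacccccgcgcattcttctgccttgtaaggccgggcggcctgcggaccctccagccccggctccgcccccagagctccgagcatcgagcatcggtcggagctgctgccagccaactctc
Filip1l, chr16:57548992-57549241, plus strand: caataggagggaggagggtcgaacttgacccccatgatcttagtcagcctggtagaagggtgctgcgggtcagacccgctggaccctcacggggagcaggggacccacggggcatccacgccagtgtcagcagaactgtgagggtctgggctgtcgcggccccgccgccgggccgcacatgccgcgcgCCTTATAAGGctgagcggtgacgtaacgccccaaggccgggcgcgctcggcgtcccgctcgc
Vcl, chr14:20929148-20929397, plus strand: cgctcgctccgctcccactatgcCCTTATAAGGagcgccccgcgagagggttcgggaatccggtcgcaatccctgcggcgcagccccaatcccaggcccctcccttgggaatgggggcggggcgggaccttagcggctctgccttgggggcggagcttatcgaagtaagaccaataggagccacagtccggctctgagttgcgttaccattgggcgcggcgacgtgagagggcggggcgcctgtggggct
Acta2, chr19:34255374-34255623, minus strand: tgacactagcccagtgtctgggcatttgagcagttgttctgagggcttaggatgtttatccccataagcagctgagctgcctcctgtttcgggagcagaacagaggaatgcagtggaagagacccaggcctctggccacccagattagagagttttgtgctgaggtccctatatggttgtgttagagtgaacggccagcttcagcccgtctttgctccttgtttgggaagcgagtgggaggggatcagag
Kcnj8, chr6:142571615-142571864, minus strand: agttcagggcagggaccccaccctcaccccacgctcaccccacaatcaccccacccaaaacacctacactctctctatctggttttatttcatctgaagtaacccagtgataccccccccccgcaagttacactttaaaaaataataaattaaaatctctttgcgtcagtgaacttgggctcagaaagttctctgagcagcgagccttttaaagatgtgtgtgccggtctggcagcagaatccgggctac

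The box ended 152 bases before the start of Myl9, 53 bases before that of Filip1l and 218 bases before that of Vcl. Filip1l, a filamin A interacting protein, was at 824 CPM in smooth muscle cells and 302 CPM in pericytes, and Vcl, the focal adhesion protein vinculin, was at 183 CPM in smooth muscle cells and 178 CPM in pericytes. Filip1l and Myl6 each have another RefSeq start without a box. A match is a description of the letters and not evidence of binding. No match says only that the strict form is not in this window, and nothing about weaker boxes.

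**Figure D2:**
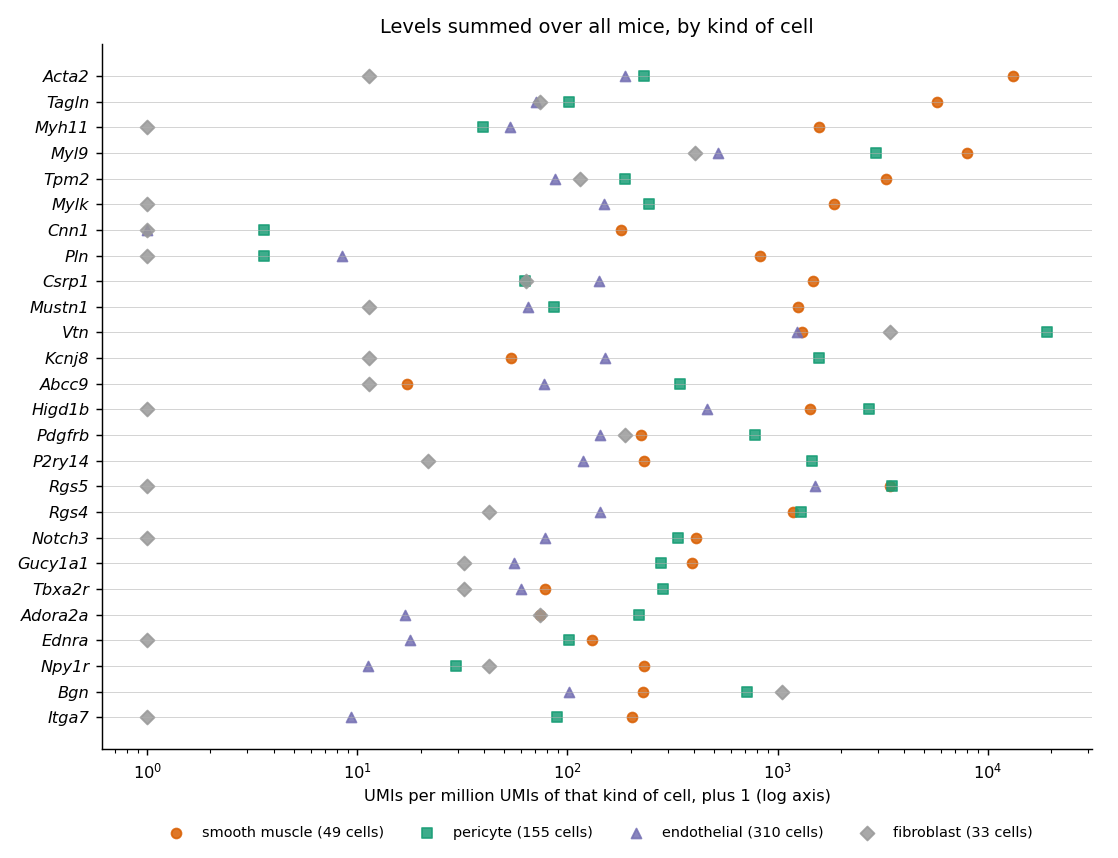
Levels of 26 genes in CPM of each kind of cell, plus 1, on a log axis, summed over all mice. Contractile genes from Acta2 to Mustn1 lie furthest right in smooth muscle cells (Acta2 at 13174 CPM), and Vtn, Kcnj8 and Abcc9 lie furthest right in pericytes (Vtn at 19216 CPM).

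Pericytes carried the potassium channel and the growth factor receptor known for this cell. Without Vtn, Kcnj8 and Higd1b, 21 of 23 pericyte genes in the table were higher in pericytes than in smooth muscle cells, and 22 were higher in mural than in endothelial cells, again as a description. Vtn, the matrix protein vitronectin, stood at 19216 CPM in pericytes, against 1308 CPM in smooth muscle cells, 1242 CPM in endothelial cells and 3415 CPM in fibroblasts. Kcnj8, the pore subunit of the ATP-sensitive potassium channel, was at 1569 CPM in pericytes and 52.8 CPM in smooth muscle cells. Those 2 genes were in the rule, with Vtn on chromosome 11 at 78499091 to 78502324 (plus strand) and Kcnj8 on chromosome 6 at 142564837 to 142571614 (minus strand) in GRCm38. Abcc9, the regulatory subunit of the same channel, was not in it and was at 344 CPM in pericytes and 16.2 CPM in smooth muscle cells.

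Other pericyte genes outside the rule were graded rather than separate. Pdgfrb, the receptor for platelet-derived growth factor, was at 781 CPM in pericytes, 223 CPM in smooth muscle cells and 141 CPM in endothelial cells. P2ry14, a receptor for UDP-sugars, was at 1466 CPM in pericytes and 231 CPM in smooth muscle cells. Atp13a5, a transport ATPase, was at 535 CPM in pericytes and 44.7 CPM in smooth muscle cells. Rgs5, a regulator of G protein signalling, was about even, at 3487 CPM in pericytes and 3423 CPM in smooth muscle cells. Ndufa4l2, a mitochondrial protein induced by low oxygen, was at 2151 CPM in pericytes and 877 CPM in smooth muscle cells.

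Some genes far higher in pericytes than in smooth muscle cells came largely from the 30 cells rich in fibroblast RNA. Igfbp2 was at 830 CPM in all pericytes but had no UMI in the other 125, and it was at 3966 CPM in fibroblasts. Apod, a lipid carrier, was at 2446 CPM in all pericytes and 75.2 CPM in the other 125, against 19174 CPM in fibroblasts. Apod was among the fibroblast genes whose UMIs picked the 30 cells, so its lower level without them describes that choice. With those 30 cells left out, the leading genes were Nts, Slc6a13, Pla1a, Hic1, Ggt1, Gng2 and Abcc9. Slc6a13 was among the fibroblast genes and Abcc9 among the pericyte genes that picked the 30 cells. Their levels without those cells describe that choice too. Nts, the precursor of the peptide neurotensin, was at 626 CPM in the other 125 pericytes, against 12.2 CPM in smooth muscle cells.

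Receptors and enzymes that act on vessel tone divided between the kinds of mural cell. Npy1r, a neuropeptide Y receptor, was at 231 CPM in smooth muscle cells and 28.4 CPM in pericytes. Pde3a, a cyclic nucleotide phosphodiesterase, was at 256 CPM in smooth muscle cells and 25.9 CPM in pericytes. Tbxa2r, the thromboxane receptor, ran the other way, with 77.2 CPM in smooth muscle cells and 284 CPM in pericytes. Adora2a, an adenosine receptor, was at 73.1 CPM in smooth muscle cells and 217 CPM in pericytes, against 15.8 CPM in endothelial cells. The subunits of the nitric oxide receptor were in both, with Gucy1a1 at 390 CPM in smooth muscle cells and 279 CPM in pericytes and Gucy1b1 at 451 CPM in smooth muscle cells and 571 CPM in pericytes. Of 35 such genes in the table, 27 were higher in mural than in endothelial cells.

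Ion channels were for the most part higher in mural than in endothelial cells. Kcna5, a voltage-gated potassium channel, had 40 UMIs in smooth muscle cells and 2 UMIs in pericytes, a ratio of 31.4 (8.15 to 268). Ano1, a chloride channel, was at 154 CPM in smooth muscle cells and 116 CPM in pericytes. Of 37 channel and calcium handling genes outside the rule, 31 were higher in mural than in endothelial cells.

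Notch3, the Notch receptor of mural cells, was at 406 CPM in smooth muscle cells and 336 CPM in pericytes, and its target Heyl at 162 CPM in smooth muscle cells and 222 CPM in pericytes. In endothelial cells Notch3 was at 77.1 CPM and Heyl at 35.3 CPM. Of the 38 genes of PDGF, Notch, TGF-beta and angiopoietin signalling in the table, 16 were higher in mural than in endothelial cells. Of 39 basement membrane and matrix genes outside the rule, 27 were higher in mural than in endothelial cells, and 23 with the 30 pericytes rich in fibroblast RNA left out. Among the transporters, Slc19a1, the folate carrier, was at 321 CPM in smooth muscle cells and 990 CPM in pericytes. Slc2a1, the endothelial glucose transporter, was at 305 CPM in smooth muscle cells and 318 CPM in pericytes, against 2610 CPM in endothelial cells. None of 24 interferon response genes was higher in mural than in endothelial cells, with Ifitm3 at 512 CPM in smooth muscle cells, 781 CPM in pericytes and 2054 CPM in endothelial cells.

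Few molecules of the drugs' known receptors were found in mural cells. Of 28 receptors that haloperidol or olanzapine are known to bind, 23 were in the table, with 22 of these below 10 mural UMIs and 14 at none. Those named here were chosen after their values were seen. A count of 0 allows a level of up to 4.74 CPM over all mural cells. Drd2, the dopamine D2 receptor, had 1 UMI, and Drd1 had 4 UMIs. Htr1b, a serotonin receptor, had 5 UMIs, all in smooth muscle cells.

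The number of mural cells captured did not separate the groups. Mural cells made up 5.56%, 7.53%, 4.29%, 2.72% and 3.54% of all cells in haloperidol mice 1 to 5. They made up 6.25%, 1.56%, 3.53%, 2.67% and 5.33% in olanzapine mice 1 to 5, and 1.55%, 1.81%, 3.68%, 3.49% and 4.28% in placebo mice 1 to 5. The groups overlapped. The means were 4.72 ± 1.88% in haloperidol mice, 3.87 ± 1.92% in olanzapine mice and 2.96 ± 1.21% in placebo mice (SD, n = 5 each). The highest shares, in haloperidol mouse 2, olanzapine mouse 1 and haloperidol mouse 1, were 7 of 93, 5 of 80 and 7 of 126 cells. The smallest placebo library, that of mouse 2, held 166 cells. Haloperidol minus placebo was 1.76 percentage points, and 0.553 to 2.27 over 21 alternative settings. The exact two-sided permutation test over mice gave p = 0.111 for haloperidol against placebo, p = 0.381 for olanzapine against placebo and p = 0.444 for haloperidol against olanzapine. Adjusted over all 9 share tests by the Benjamini-Hochberg method, p was 0.643 to 0.829.

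The makeup of the mural cells did not separate them either. Among mice with at least 5 mural cells, smooth muscle cells were 27.1 ± 10.2% of mural cells in haloperidol mice (SD, n = 5), 21.5 ± 14.8% in olanzapine mice (SD, n = 4) and 19.8 ± 15.9% in placebo mice (SD, n = 4). The exact permutation p was 0.460 for haloperidol against placebo, 0.829 for olanzapine against placebo and 0.571 for haloperidol against olanzapine. Among cells of class "other", mural cells were 40.9 ± 13.2% in haloperidol mice (SD, n = 4), 38.8 ± 17.01% in olanzapine mice (SD, n = 4) and 26.5 ± 13.3% in placebo mice (SD, n = 5). Here haloperidol mouse 1 (77.8%) and olanzapine mouse 1 (62.5%) were left out, with fewer than 10 cells of that class. Theirs were the highest shares of all mice, and no placebo mouse was left out. The exact permutation p was 0.143, 0.238 and 0.829 for the same pairs. Dissociation and dead cell removal came before capture, so these are shares of recovered cells.

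**Figure D3:**
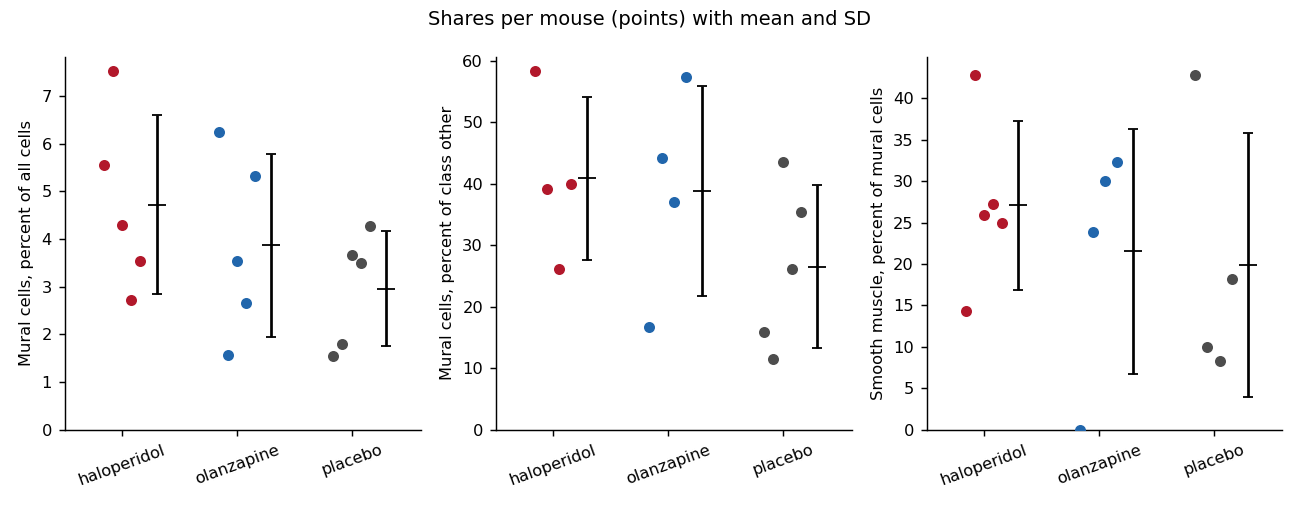
Shares in percent for each mouse (points), with the group mean and SD (bars), for haloperidol, olanzapine and placebo mice. The groups overlap in all 3 panels, as with mural cells among all cells, where means were 4.72%, 3.87% and 2.96%.

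For the drug comparisons, counts were summed over the mural cells of each mouse with at least 5 of them. This kept 5 haloperidol, 4 olanzapine and 4 placebo mice, leaving out olanzapine mouse 2 (2 cells) and placebo mouse 2 (3 cells). The sums ran from 16414 to 87561 UMIs in haloperidol mice, 14627 to 149166 UMIs in olanzapine mice and 22686 to 67715 UMIs in placebo mice. The share of these UMIs that came from smooth muscle cells was 28.6% to 52.4% in haloperidol mice, 0% to 51.6% in olanzapine mice and 6.42% to 79.8% in placebo mice. Summed over 13 endothelial markers outside the rule, the level was 1396 to 6270 CPM in haloperidol mice, 1174 to 4801 CPM in olanzapine mice and 1689 to 6392 CPM in placebo mice. The medians were 4911, 2199 and 5491 CPM in that order, lowest in olanzapine mice. Over 9 fibroblast markers outside the rule the level was 467 to 6347 CPM in haloperidol mice and 1095 to 11281 CPM in olanzapine mice. In placebo mice it was 2275 to 5554 CPM. The fibroblast medians were 5493, 2430 and 3328 CPM for haloperidol, olanzapine and placebo mice. Over 11 astrocyte markers the level was 6243 to 9478 CPM in haloperidol mice, 7598 to 10391 CPM in olanzapine mice and 5554 to 12100 CPM in placebo mice.

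The genes of the rule chose the members and fixed their split, so their levels by mouse are a description and no test is given. Acta2 was at 2581, 4709, 3209, 4143 and 7737 CPM in haloperidol mice 1 to 5, at 820, 10002, 5047 and 4465 CPM in olanzapine mice 1, 3, 4 and 5, and at 10756, 650, 1493 and 3278 CPM in placebo mice 1, 3, 4 and 5. The highest and the lowest Acta2 level both lay in placebo mice, and placebo mouse 1, with the highest, also had the highest smooth muscle share of UMIs (79.8%). Kcnj8 was at 1439, 817, 994, 967 and 183 CPM in haloperidol mice, at 820, 798, 1291 and 972 CPM in olanzapine mice, and at 309, 1806, 1689 and 1108 CPM in placebo mice.

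No gene was called for haloperidol against placebo in mural cells. Of 481 genes tested with edgeR's quasi-likelihood test, 0 (0%) had an adjusted p under 0.05, 12 (2.49%) had an unadjusted p under 0.05, and for 2 (0.416%) the groups did not overlap. DESeq2 also called 0, with 8 at an unadjusted p under 0.05. The median log2 fold change over all genes tested was -0.02, and 228 of the 481 had a higher level in haloperidol mice. Among the genes with the smallest p were Slc25a5, Ndufa4l2, B2m, Rpl5 and Ubl5, all at an edgeR adjusted p of 0.994.

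Slc25a5, the mitochondrial carrier that exchanges ADP and ATP, led that comparison. It was at 508, 1245, 445, 470 and 548 CPM in haloperidol mice, against 220, 217, 236 and 399 CPM in placebo mice. All 5 haloperidol mice lay above all 4 placebo mice, with a log2 fold change of 1.15 (SE 0.38) that did not pass the correction. Olanzapine mice had 342, 623, 665 and 420 CPM and overlapped both other groups. Ndufa4l2 averaged 1400 ± 156 CPM in haloperidol mice and 2230 ± 778 CPM in placebo mice, with a log2 fold change of -0.69 (SE 0.24). B2m, the light chain of MHC class I, averaged 369 ± 102 CPM in haloperidol mice and 614 ± 69.8 CPM in placebo mice, with a log2 fold change of -0.69 (SE 0.26). Across kinds of cell B2m stood at 296 CPM in smooth muscle cells and 582 CPM in pericytes, against 1985 CPM in endothelial cells. The part of endothelial RNA in its difference was not tested.

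For olanzapine against placebo, too, no gene was called in mural cells. Of the 481 genes, 0 (0%) passed with edgeR, 16 (3.33%) had an unadjusted p under 0.05, and for 9 (1.87%) the groups did not overlap. DESeq2 called 0, with 13 at an unadjusted p under 0.05. The 6 genes with the smallest p were Dbp, Sept11, Fos, Ubl5, Meg3 and Junb, each at an edgeR adjusted p of 0.989. The median over all genes tested was -0.05, and 211 of the 481 had a higher level in olanzapine mice.

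Dbp, a clock-controlled transcription factor whose mRNA cycles over the day, had the smallest p. It was at 254, 623, 11.4, 304 and 0 CPM in haloperidol mice, at 410, 456, 548 and 1020 CPM in olanzapine mice, and at 176, 0, 118 and 0 CPM in placebo mice. All 4 olanzapine mice lay above all 4 placebo mice, while haloperidol mice spanned both ranges. The values rest on few molecules, with 6 to 85 UMIs in an olanzapine mouse and 0 to 4 UMIs in a placebo mouse. The log2 fold change for olanzapine was 3.47 (SE 1.05). In the mice left out of the fit Dbp had 2 UMIs (224 CPM) in olanzapine mouse 2 and 3 UMIs (163 CPM) in placebo mouse 2. The labels give no time of day of collection, so the hour and the group cannot be told apart here.

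Immediate early genes are transcribed within minutes of a stimulus and also during tissue dissociation, and none passed the test. Of 10 tested, 5 had a higher level in haloperidol mice than in placebo mice (median log2 fold change 0.05, none at an unadjusted p under 0.05) and 9 in olanzapine mice (median 0.62, 2 at an unadjusted p under 0.05). Fos was at 2327, 1557, 1736, 939 and 1158 CPM in haloperidol mice, at 2803, 2829, 3169 and 1764 CPM in olanzapine mice, and at 617, 867, 1964 and 1270 CPM in placebo mice. The olanzapine and placebo mice overlapped, through olanzapine mouse 5 and placebo mouse 4. The log2 fold change of Fos was 0.36 (SE 0.35) for haloperidol and 1.12 (SE 0.36) for olanzapine. Junb had log2 fold changes of 0.59 (SE 0.29) for haloperidol and 0.77 (SE 0.30) for olanzapine. Across kinds of cell Fos stood at 2473 CPM in smooth muscle cells and 1458 CPM in pericytes, against 636 CPM in endothelial cells.

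Meg3, a long noncoding RNA that is abundant in neurons, had a log2 fold change of 1.79 (SE 0.65) for olanzapine. It was at 684, 1596, 509 and 372 CPM in olanzapine mice, against 44.1, 506, 236 and 162 CPM in placebo mice, and the groups overlapped. Summed over 11 neuron markers, Meg3 among them, the level was 244 to 925 CPM in haloperidol mice, 528 to 2072 CPM in olanzapine mice and 309 to 831 CPM in placebo mice. Of the 11 markers, 2 were at 0 in haloperidol mice, 1 in olanzapine mice and 1 in placebo mice. The part of neuronal RNA in the result was not tested.

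Heat shock genes had positive log2 fold changes in olanzapine mice for 7 of 7 tested (median 0.49, none at an unadjusted p under 0.05) and in haloperidol mice for 4 of 7 (median 0.07). Hspb1, a small heat shock protein abundant in vessels, averaged 831 ± 416 CPM in haloperidol mice, 1419 ± 260 CPM in olanzapine mice and 966 ± 117 CPM in placebo mice. Of 4 endothelial markers outside the rule that were tested, 3 had negative log2 fold changes in olanzapine mice (median -1.07) and 2 in haloperidol mice (median 0.04), none at an unadjusted p under 0.05. The fit called none of these genes. The part of endothelial RNA in the immediate early and heat shock values was not tested.

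**Figure D4:**
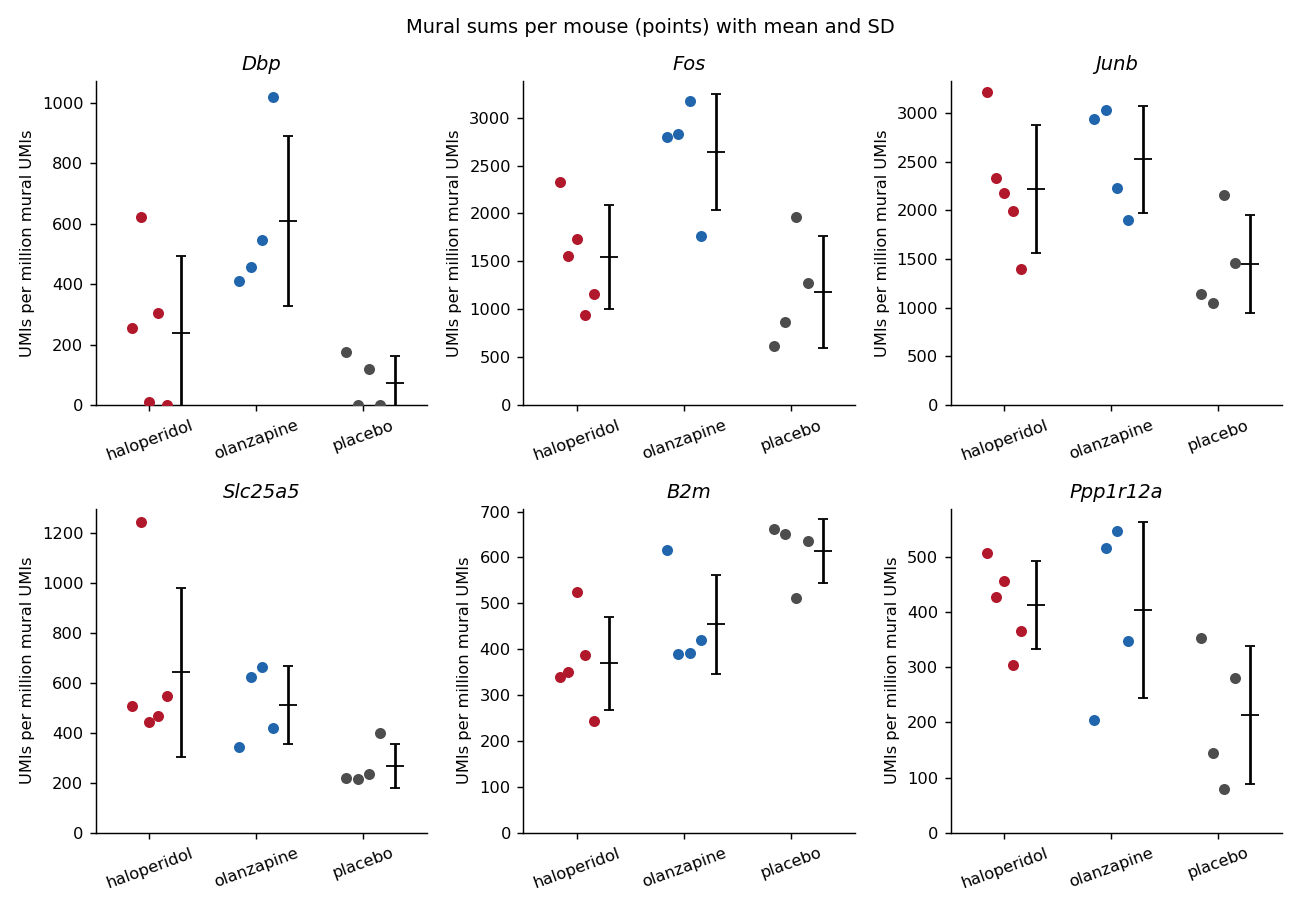
Levels of 6 genes in the mural sums of each mouse (points), in CPM, with group mean and SD (bars). For Dbp the 4 olanzapine mice (410 to 1020 CPM) lie above the 4 placebo mice (0 to 176 CPM), and for Slc25a5 the haloperidol mice lie above the placebo mice; neither difference passed the correction.

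No gene of the contractile or pericyte list was called in mural cells. Of 16 contractile genes outside the rule that were tested, 11 had a higher level in haloperidol mice than in placebo mice (median log2 fold change 0.41) and 14 in olanzapine mice (median 0.30). Ppp1r12a, the targeting subunit of myosin phosphatase, had the smallest p among them, with log2 fold changes of 0.88 (SE 0.36) for haloperidol and 0.90 (SE 0.36) for olanzapine. It averaged 412 ± 79.5 CPM in haloperidol mice, 404 ± 159 CPM in olanzapine mice and 214 ± 125 CPM in placebo mice. Of 11 pericyte genes outside the rule that were tested, 8 had a lower level in haloperidol mice (median -0.14) and 6 in olanzapine mice (median -0.18). Of all 481 genes tested, 228 had a higher level in haloperidol mice and 211 in olanzapine mice than in placebo mice. The pericyte count for olanzapine is therefore near that of all genes. The median smooth muscle share of the mural UMIs was 42.5% in haloperidol mice, 46.7% in olanzapine mice and 27.9% in placebo mice, and its part in both lists was not tested. With that share as a covariate edgeR called 0 genes in all 3 comparisons. Both drugs are set against the same placebo mice.

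Among the other lists, 5 of 6 matrix genes outside the rule had a higher level in haloperidol mice (median 0.21) and 4 of 6 in olanzapine mice (median 0.11). Sparcl1, a secreted matrix protein, averaged 2668 ± 561 CPM in haloperidol mice and 1772 ± 450 CPM in placebo mice, with a log2 fold change of 0.59 (SE 0.26). Of 7 metabolic and hypoxia genes outside the rule, 5 had a lower level in haloperidol mice (median -0.10) and 5 in olanzapine mice (median -0.42). Epas1, which encodes the hypoxia factor HIF-2α, had a log2 fold change of -0.93 (SE 0.42) for olanzapine. None passed the correction.

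Genes that earlier results on the whole class "other" had named for either drug were looked up in mural cells. Csrp1, a muscle LIM protein, had log2 fold changes of 0.56 (SE 0.56) for haloperidol and 0.93 (SE 0.56) for olanzapine. Filip1l had 0.83 (SE 0.46) and 1.11 (SE 0.46), and Gper1, a G protein-coupled oestrogen receptor, had 0.35 (SE 0.32) and 0.73 (SE 0.33), for haloperidol and olanzapine in that order. Myl9 was close to 0, at -0.05 (SE 0.37) for haloperidol and 0.10 (SE 0.38) for olanzapine, and its sign changed with single mice left out. Tmsb10, an actin-sequestering peptide, had 0.29 (SE 0.47) for haloperidol and -0.28 (SE 0.50) for olanzapine. No gene of this set passed in mural cells, and Lmod1, Ptk2, Vwf and Slc38a5 fell below the filter on low counts.

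Haloperidol against olanzapine gave no call in mural cells either. With edgeR 0 of 481 genes (0%) passed, 11 (2.29%) had an unadjusted p under 0.05, and for 3 (0.624%) the groups did not overlap, while DESeq2 called 0, with 8 at an unadjusted p under 0.05. Cyr61, an immediate early gene for a secreted matrix protein, was at 339, 234, 457, 525 and 244 CPM in haloperidol mice, against 1983, 831, 782 and 504 CPM in olanzapine mice. The groups overlapped by 1 mouse each, and the log2 fold change was -1.38 (SE 0.52). Arpc2, a subunit of the actin-nucleating Arp2/3 complex, averaged 502 ± 93.6 CPM in haloperidol mice and 272 ± 108 CPM in olanzapine mice, with a log2 fold change of 0.72 (SE 0.26). For Arpc2 the groups did not overlap.

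Pericytes were also summed alone, in haloperidol mice 1, 3, 4 and 5, olanzapine mice 1, 3, 4 and 5 and placebo mice 3, 4 and 5. Of 464 genes, edgeR called 0 (0%) in each of the 3 comparisons. For haloperidol against placebo 6 genes (1.29%) had an unadjusted p under 0.05, for olanzapine against placebo 15 (3.23%), and for haloperidol against olanzapine 19 (4.09%). The groups did not overlap for 12 (2.59%), 22 (4.74%) and 14 (3.02%) genes in the same order of comparisons. DESeq2 called 0, 1 and 0 genes, with 7, 9 and 7 at an unadjusted p under 0.05.

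The gene that DESeq2 called in pericytes was Dbp. It was at 356, 19.8, 391 and 0 CPM in haloperidol mice, at 410, 744, 1039 and 1488 CPM in olanzapine mice, and at 0, 126 and 0 CPM in placebo mice. The log2 fold change for olanzapine against placebo was 4.71 (SE 1.01) with an edgeR adjusted p of 0.246, and DESeq2 gave 4.67 with an adjusted p of 0.012. Of the 16 alternatives for pericytes Dbp was tested in 13, and in the rest it fell below the filter on low counts. Over the 13 the value ran from 3.66 to 7.94 and the adjusted p from 1.608e-06 to 0.999. The gene also passed with no filter on low counts and without haloperidol mouse 3 (4.65, edgeR adjusted p = 0.0378), and its value was 7.94 without placebo mouse 4. Among mice left out for fewer than 5 pericytes, Dbp had 4 UMIs (872 CPM) in placebo mouse 1 and 3 UMIs (212 CPM) in placebo mouse 2, against 2 UMIs (224 CPM) in olanzapine mouse 2. With those mice counted the groups would overlap.

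Other pericyte values stayed short of the threshold. Cald1 had a log2 fold change of -0.62 (SE 0.24) for haloperidol against placebo, and its groups did not overlap. Gper1 had 0.99 (SE 0.37) and Fos 1.05 (SE 0.36) for olanzapine against placebo, and Fos had -1.27 (SE 0.35) for haloperidol against olanzapine. Of 12 immediate early genes tested in pericytes, 11 had a lower level in haloperidol than in olanzapine mice (median -0.60, 3 at an unadjusted p under 0.05). Of all 464 genes tested there, 226 had a higher level in haloperidol mice. Apod had 2.14 (SE 0.90) for haloperidol against placebo, a gene that the cells rich in fibroblast RNA carried and that helped to choose them. Without those cells edgeR called 0 genes in pericytes in all 3 comparisons.

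Endothelial cells of the same mice gave the test of whether a drug difference was particular to mural cells. The fit held mural and endothelial sums of haloperidol mice 2 to 5, olanzapine mice 3 to 5 and placebo mice 1, 3, 4 and 5, with the mouse as a block. Of 1345 genes, edgeR called 0 (0%) for haloperidol against placebo, 1 (0.0743%) for olanzapine against placebo and 0 (0%) for haloperidol against olanzapine. Those with an unadjusted p under 0.05 were 105 (7.81%), 179 (13.3%) and 55 (4.09%). For haloperidol against placebo that number was 66 without the shared barcodes of placebo mouse 5, 66 without haloperidol mouse 4 and 57 without placebo mouse 5. For olanzapine against placebo it was 106 without olanzapine mouse 3 and 105 without placebo mouse 5. For haloperidol against olanzapine it ran from 29 without haloperidol mouse 3 to 93 without haloperidol mouse 2 or olanzapine mouse 4. For olanzapine against placebo the count was 8 without haloperidol mouse 2, 9 without haloperidol mouse 5, 6 without placebo mouse 3 or placebo mouse 4, and 3 without haloperidol mouse 4 or placebo mouse 1. It was 3 without the shared barcodes of placebo mouse 5, 2 without haloperidol mouse 3 or olanzapine mouse 4, and 0 without olanzapine mouse 3 or olanzapine mouse 5. DESeq2 was not run for this difference of differences.

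The called gene was Mustn1, a small nuclear protein of muscle and one of the contractile list. In mural cells it was at 731, 626 and 696 CPM in olanzapine mice 3 to 5, against 573, 181, 118 and 517 CPM in placebo mice 1, 3, 4 and 5. In endothelial cells it was at 6.89, 0 and 0 CPM in the olanzapine mice, against 209, 27.9, 22.9 and 68.9 CPM in the placebo mice. Neither set of values overlapped between the groups, and the log2 difference between the olanzapine effects in mural and endothelial cells was 4.75 (SE 0.86, edgeR adjusted p = 0.0105). Mustn1 fell below the filter on low counts in the fit of endothelial cells alone. The endothelial side rests on 1 UMI in olanzapine mice and 42 UMIs in placebo mice, 30 of them in placebo mouse 1. The call was lost without olanzapine mouse 3 (6.03, adjusted p 0.381), olanzapine mouse 5 (4.49, adjusted p 0.0698) or placebo mouse 1 (4.14, adjusted p 0.0575). Over the 13 alternatives the adjusted p ran from 6.694e-05 to 0.381.

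Other smooth muscle genes stood beside Mustn1 in the endothelial sums. Acta2 was there at 13.8, 0 and 18.9 CPM in olanzapine mice 3 to 5, against 563, 55.7, 45.9 and 161 CPM in placebo mice 1, 3, 4 and 5, and Tagln at 6.89, 0 and 0 CPM against 341, 55.7, 0 and 30.6 CPM in those mice. The part of smooth muscle RNA within endothelial cells in the Mustn1 difference was not tested. In mice without enough cells of both kinds, mural Mustn1 was at 137 CPM in olanzapine mouse 1 and 0 CPM in olanzapine mouse 2, against 54.3 CPM in placebo mouse 2. Over all mice, then, mural Mustn1 overlapped between olanzapine and placebo.

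Further genes of the same comparison fell just short. For olanzapine against placebo, Ppp1r12a had a log2 difference of 2.28 (SE 0.50, edgeR adjusted p = 0.0591), Tm4sf1, a membrane protein of endothelial cells, -1.51 (SE 0.34, adjusted p = 0.0591) and Des, the muscle intermediate filament desmin, 3.01 (SE 0.72, adjusted p = 0.0645). Tpm2 had 2.77 (SE 0.67, edgeR adjusted p = 0.0645). All 4 passed without haloperidol mouse 2 or haloperidol mouse 5, and Ppp1r12a also without the shared barcodes of placebo mouse 5 (2.38, edgeR adjusted p = 0.0451). Over its 13 alternatives the adjusted p of Ppp1r12a ran from 0.00956 to 0.426. Des was at 657, 509 and 300.1 CPM in the mural cells of olanzapine mice 3 to 5, against 353, 217, 157 and 266 CPM in those of the placebo mice, and the groups overlapped. For haloperidol against placebo no gene came as near. Rpl39, a ribosomal protein gene, had the smallest p there, at 1.24 (SE 0.31, edgeR adjusted p = 0.495). Rpl39 and Rpl38 passed only with no filter on low counts. Tmsb10, lower in that order, had 2.08 (SE 0.57, edgeR adjusted p = 0.547), and it passed without olanzapine mouse 4 and with no filter. It was at 480, 1805, 1521 and 863 CPM in the endothelial cells of haloperidol mice 2 to 5, against 2991, 4540, 2924 and 3996 CPM in those of the placebo mice. In the mural cells of the same mice Tmsb10 was at 817, 868, 1022 and 792 CPM in haloperidol mice and 220, 794, 668 and 857 CPM in placebo mice.

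Dbp did not differ between the cell kinds beyond its error. In endothelial cells alone (1534 genes tested) it was the 1 gene called for olanzapine against placebo (0.0652%), at 2.88 (SE 0.49, edgeR adjusted p = 0.00752). There it stood at 275, 186, 177 and 340 CPM in olanzapine mice 2 to 5, against 55.7, 32.8, 27.9, 0 and 23.0 CPM in placebo mice 1 to 5. The fit of endothelial cells alone thus held the placebo mice that shared barcodes. That fit was not repeated without the shared cells, with DESeq2 or with single mice left out. The log2 difference between the mural and the endothelial effect was 0.28 (SE 1.34), so a gap of either sign remained within its error. Dbp thus had higher levels in olanzapine than in placebo mice in both kinds of vascular cell, and the test passed in endothelial cells and not in mural cells.

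**Figure D5:**
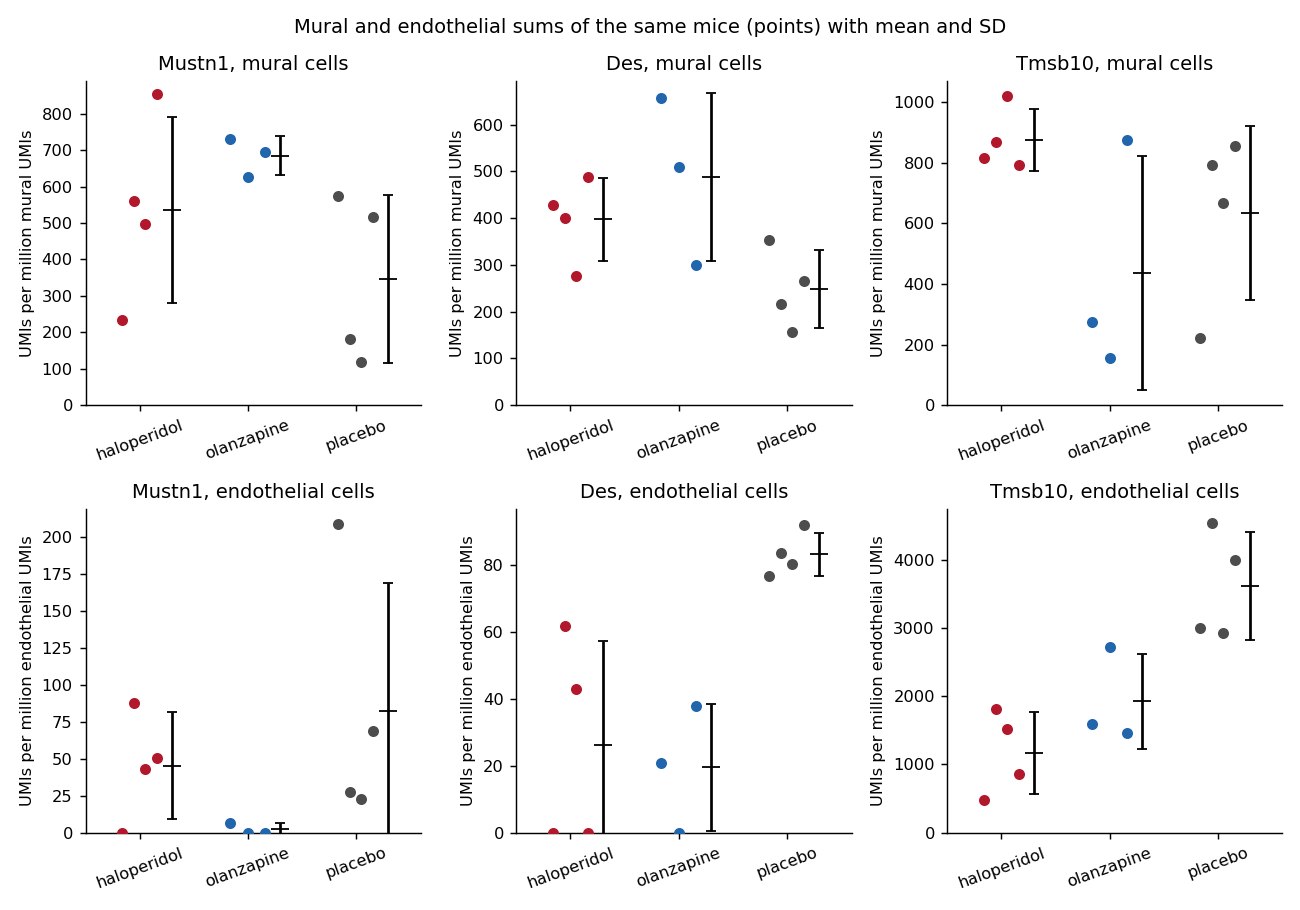
Levels of Mustn1, Des and Tmsb10 in mural cells (top) and endothelial cells (bottom) of the same mice (points), in CPM of that cell kind, with group mean and SD (bars). For Mustn1 the olanzapine mice lie at 626 to 731 CPM in mural cells and at 0 to 6.89 CPM in endothelial cells, where placebo mice reach 209 CPM.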

How the data were processed

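Each of the 15 mice gave 1 library. The deposited table holds UMI counts of 15932 genes in 5581 cells with the authors' class of each cell. The submitters' processing notes name Cell Ranger, Seurat and mm10, and the version of each tool is not given in the sources used here. Every gene in the table had a count in at least 2 cells. Mice were allocated at random, per the series' design text, and are numbered 1 to 5 within a group in the order of the deposit.

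Members and gene lists were chosen with earlier results of these data known, some of them from a previous look at the same cells, so no list is independent support. The deposited counts were summed per mouse and kind of cell and tested with edgeR 4.0.16 (R 4.3.3) by its quasi-likelihood test, with TMM scaling, filterByExpr and Benjamini-Hochberg adjustment over all genes tested, at an adjusted p of 0.05. Mice with at least 5 cells of a kind entered its fit. DESeq2 1.42.0 was an alternative. Shares were tested by exact permutation over mice (scipy 1.17.1). Doublets were marked with Scrublet in scanpy 1.11.5 and kept. The edgeR and DESeq2 fits of mural sums and the mural minus endothelial fit were run on simulated counts. Known changes were put into the mural sums of olanzapine mice only. The pericyte fit, the share tests and the choice of members were not simulated. How small a change these numbers of mice could detect is not reported here. Other alternatives were upper quartile scaling, no filter, other minimum numbers of cells, stricter rules for members, and each mouse left out in turn.

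The genes named were those of the rule, called genes and the 6 with the smallest p in each fit, up to 4 of each list with the smallest p and up to 4 with the highest mural level, those with the highest ratios of level between kinds of cell, and genes called earlier in the whole class. Others were chosen after their values were seen, and a few genes that the rule names are not reported here. Depth limits the values: 1 UMI in a mouse's mural sum is worth between 6.70 and 68.4 CPM. Promoters were taken from RefSeq (GRCm38.p6). Tagln, Myh11, Actg2, Map3k7cl, Higd1b, Pdgfrb, Ndufa4l2, Cd248, Cox4i2, Ptk2 and Carmn had no entry.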

Additional observations from a re-analysis of the deposited data

Results flagged for a closer look

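Over 126 groups of 3 to 5 mice, 6 had 1 mouse farther from the others than Dixon's 95% critical value allows. The groups of 3, placebo mice in pericytes, could not be flagged. Chance flags about 5% of the groups that can be. Slc25a5 in mural cells was at 1245 CPM in haloperidol mouse 2 and at 399 CPM in placebo mouse 5, each above the rest of its group. B2m in mural cells was at 615 CPM in olanzapine mouse 1, above the other olanzapine mice. Gprc5c, an orphan receptor, was at 0 CPM in the pericytes of haloperidol mouse 1, below the other haloperidol mice. Meg3 in pericytes was at 953 CPM in haloperidol mouse 3 and at 1441 CPM in olanzapine mouse 3, above the rest of each group. For Mustn1 the olanzapine effect differed between mural and endothelial cells by 4.75 on the log2 scale, by a test of the difference itself.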

How the results depend on the processing

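No pairing of mice between the groups was possible, because each mouse received 1 treatment and the labels name no pairs. Only the mural minus endothelial fit was paired, within the mouse. Each mouse had few mural cells, and the comparisons share placebo mice. Of the settings on counts and shares, 272 planned and 41 added ones kept direction and side of the threshold, 23 planned and 1 added moved by more than the limit, and 11 planned and 3 added reversed; the cause was not tested. For single genes 1273 planned and 141 added settings stayed, 23 and 1 came to pass, 3 planned no longer passed, and 16 and 2 reversed. No filter is a wider test on genes with few UMIs.

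With no filter on low counts, edgeR called 3 genes in mural cells for haloperidol (Acox3, Gkn3, Mt3) and 4 for olanzapine (Dbp, Gkn3, Meg3, Mt3) against placebo, 1 in pericytes in each of the 3 comparisons, and 6, 17 and 1 for mural minus endothelial, in the order haloperidol against placebo, olanzapine against placebo, haloperidol against olanzapine. With a mural sum over 2 times the others, 1 mural gene was called for haloperidol against placebo (Pcolce, edgeR adjusted p = 0.0104). Leaving out 1 mouse at a time gave 0 to 0 calls in mural cells, 0 to 1 in pericytes for olanzapine against placebo, and 0 to 1, 0 to 9 and 0 to 1 for mural minus endothelial in that order. Without the shared barcodes, olanzapine against placebo gave 3 for mural minus endothelial.

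Differences in shares are in percentage points. With doublets out, mural cells among all cells differed by -0.113 for olanzapine against placebo, mural cells in class "other" by -6.73 and smooth muscle in mural cells by -3.21 for haloperidol against olanzapine. Without haloperidol mice 1 and 2 and olanzapine mice 1 and 2, the study's first 4 mice, which include no placebo mouse, these were -0.328, -11.1 and -2.62 for haloperidol against olanzapine. With at least 10 mural cells smooth muscle differed by -2.09 there. Leaving out 1 mouse gave -5.30 to 8.28 (class "other") and -1.62 to 9.13 (smooth muscle) for haloperidol against olanzapine, and -2.16 to 9.34 (smooth muscle) for olanzapine against placebo.

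Among log2 fold changes, Tmsb10 for haloperidol against placebo was -0.60 with the stricter rule. Myl9 for haloperidol was 0.21 with at least 10 and 0.037 with at least 3 mural cells, and -0.24 to 0.24 with 1 mouse out, and Fos was -0.06 with at least 10. For olanzapine, with 1 mouse out, Tmsb10 was -0.66 to 0.041 and Myl9 -0.16 to 0.42. Dbp, mural minus endothelial, was -0.53 to 0.99 (haloperidol) and -0.47 to 1.02 (olanzapine) with 1 mouse out, and -0.15 and -0.11 without shared barcodes.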

Other observations

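Outside class "other", 5 cells met the same mural sums, 4 annotated as astrocytes and 1 as a neuron. Within that class 90 cells that were not members held 3 or more mural UMIs.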
